A study of Mus musculus with 16 samples.

Results

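The regions described here gained acetylation of histone H3 lysine 27 (H3K27Ac) in the inflamed livers of Mdr2-/- mice and then differed from nodule to nodule in hepatocellular carcinoma (HCC). Overlapping or adjoining H3K27Ac peaks of 15 animals were merged on chromosomes 1 to 19 into 55617 regions. A region was taken when a peak lay in it in 5 of 5 inflamed livers, in 0 of 5 wild type (WT) livers and in 1 to 3 of 5 HCC nodules. The rule took 1821 regions, 3.27% of the merged regions, and they are called variable regions. They made up 67.1% of the 2713 regions gained in inflamed livers, that is, with a peak in all inflamed and no WT animals. Of the other gained regions, 484 had a peak in no nodule (absent regions, 17.8%) and 408 had a peak in 4 or 5 nodules (retained regions, 15.0%). Over all merged regions, 4.88% were gained in inflamed livers, 0.405% had the opposite pattern (a peak in all WT and no inflamed livers), and 50.9% had a peak in 1 to 3 nodules. Since the rule itself used the presence of peaks in these animals, the counts are a description and carry no test.

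H3K27Ac is laid down by histone acetyltransferases at promoters and enhancers that are bound by activating transcription factors, and it is lost again when such elements fall silent. In a liver, the peaks of a whole tissue sample come mostly from hepatocytes, with a contribution of biliary, stellate, endothelial and immune cells. ABCB4, encoded by Mdr2, moves phosphatidylcholine into bile, where it shields the bile ducts and the hepatocyte membrane from bile salts. Its absence leads to chronic bile injury with inflammation and fibrosis, and later to tumours. In bulk tissue, fewer cells of a type and less acetylation per cell cannot be told apart.

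WT livers came from FVB.129P2 animals at 14 to 19 months of age, inflamed livers from FVB.129P2-Abcb4tm1Bor/J (Mdr2-KO) animals at 7 to 8 months and HCC nodules from animals of the same knockout strain at 14 to 19 months. The knockout affects every cell of the body. Inflamed livers thus differed from WT livers in genotype and in age, and from nodules in age and tissue, and these cannot be told apart. All 15 animals had received clodronate liposomes, which deplete liver macrophages, at 50 μg per g of body weight 48 h before collection. These details follow the sample records. The study's methods name FVB/NJ for the WT animals and another dose of clodronate, and its text calls the WT mice age matched. Males and females were used, and the records do not say which animal was which. The IgG library was not analysed here. The nodules are numbered 1 (animal 124711), 2 (125278), 3 (125279), 4 (123206) and 5 (123390), and the inflamed livers 1 (148997), 2 (148998), 3 (149198), 4 (149199) and 5 (148990).

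Each animal has its own list of peaks with a score from the peak caller and no read counts, so that the depth of the libraries is unknown. On chromosomes 1 to 19 the lists held 25867 to 29618 peaks in WT livers, 35188 to 40063 in inflamed livers and 26235 to 41863 in nodules. Nodule 1 overlapped more with 1 WT animal than with any other nodule. Its Jaccard index (the bases under peaks of both animals as a share of those under a peak in at least 1 of them) was 0.365 to 0.456 with the other nodules and 0.630 with WT animal 130748. Index values among the other nodules are not shown, so whether they were more alike was not tested. Without nodule 1 there were 1873 variable regions, and without WT animal 130748 there were 2492. From the paper's principal component plot of these H3K27Ac profiles, some samples were removed as outliers, and its legend does not name them. Whether nodule 1 or WT animal 130748 was among them is therefore unknown. Every list was kept here, so the low shares of nodule 1 may not be ordinary variation among nodules. The strength of a peak is given as the percentile of its score among the peaks of the same list, and tied peaks share a percentile. Where a list had several peaks in a region, the highest percentile was taken. From 9.65% to 24.6% of a list shared the score of 3100, so that the strongest peaks have no order among themselves. Genes were not assigned to the regions, because an annotation of their genome build (mm9) was not used here.

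Which nodules carried the peaks was very uneven. Of the 25 possible combinations of 1 to 3 nodules, 24 occurred, and the 5 commonest held 1451 regions (79.7%). Each of these 5 contained nodule 3, which had the longest list and a peak in 64.3% of all merged regions. Combinations were not counted over the other merged regions with a peak in 1 to 3 nodules. Whether this unevenness is particular to variable regions was therefore not tested. The commonest was nodule 3 alone, with 457 regions (25.1%). Nodules 2 and 3 together had 346 regions (19.0%), and nodules 3 and 4 had 252 (13.8%). Among combinations of 3 nodules, 2, 3 and 5 came first with 213 regions (11.7%), followed by 2, 3 and 4 with 183. The combinations that remained were small. Nodule 2 alone had 67 regions, nodules 3 and 5 had 53, nodules 1, 3 and 4 had 42 and nodules 3, 4 and 5 had 41. Nodule 4 alone had 32 regions, nodule 1 alone 20 and nodule 5 alone 15. Nodules 1, 2 and 3 had 26 regions, nodules 1 and 3 had 23, nodules 2 and 4 had 17 and nodules 2 and 5 had 13. A further 8 combinations had fewer than 10 regions each and 21 regions in all. The combination of nodules 1, 2 and 4 did not occur.

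**Figure D1:**
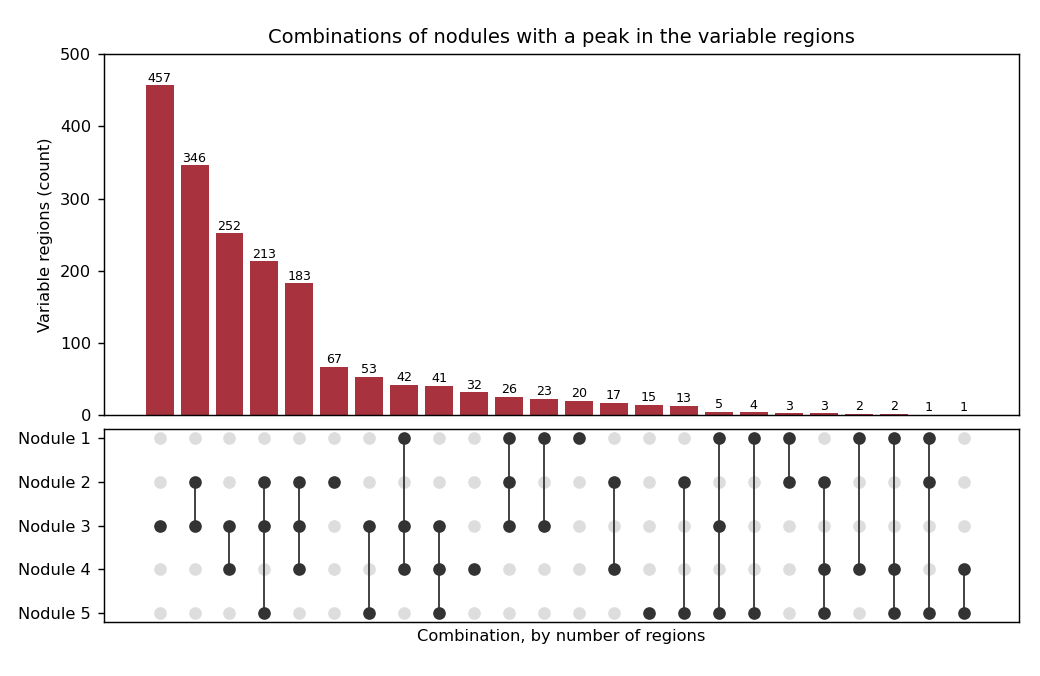
Number of variable regions (bars) for each combination of nodules that occurred (dark dots joined by a line, 1 column per combination). The first 5 columns, all of them with nodule 3, hold 1451 of the 1821 regions, from 457 for nodule 3 alone to 183 for nodules 2, 3 and 4.

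By number, 591 variable regions (32.5%) had a peak in a single nodule, 714 (39.2%) in 2 nodules and 516 (28.3%) in 3. Nodule 3 was among the carriers in 77.3% of the first, 94.4% of the second and 98.8% of the third. These shares were not taken over the other merged regions with a peak in 1 to 3 nodules. Only 180 variable regions (9.88%) lacked a peak in nodule 3. Most variable regions of the other nodules were thus regions of nodule 3 too. The shares were 75%, 88.1%, 90.1% and 88.9% for nodules 1, 2, 4 and 5. Over all merged regions they were 84.7%, 82.2%, 88.8% and 81.7% for the same nodules, so that this overlap was not particular to variable regions.

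Each nodule's share of the variable regions was set beside its share of all merged regions, since a longer list has more peaks everywhere. Nodule 3 had a peak in 1641 variable regions (90.1%), against 64.3% of all merged regions. Nodule 2 had a peak in 872 (47.9%, against 54.6%), and nodule 4 in 575 (31.6%, against 45.1%). Nodule 5 had a peak in 351 (19.3%, against 46.3%), and nodule 1 in 128 (7.03%, against 37.0%). Nodule 3 alone was thus above its share of all regions. The limit of 1 to 3 nodules acts on the variable regions only, so these shares are not fully alike. The same order was seen over all 2713 gained regions, whose choice used no nodule. Nodule 3 had a peak in 75.5% of the gained regions, nodule 2 in 46.6%, nodule 4 in 35.5%, nodule 5 in 26.8% and nodule 1 in 9.80%. Here too, only the share of nodule 3 was above that nodule's share of all merged regions.

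List length moved with these shares. Nodule 3 had the longest list, with 41863 peaks, then nodule 2 with 38547, nodule 4 with 29475, nodule 5 with 28118 and nodule 1 with 26235. In a setting chosen after the values were seen, every nodule list was shortened to its best 26235 peaks while WT and inflamed lists stayed whole. Nodule 3 then had a peak in 51.8% of the gained regions, nodule 4 in 28.9%, nodule 5 in 23.5%, nodule 2 in 20.2% and nodule 1 in 9.80%, against 37.0% to 43.4% of all merged regions in each nodule. Nodule 3 remained first and nodule 1 last, while nodule 2 fell from the second place to the fourth. At this length 1500 gained regions (55.3%) had a peak in 1 to 3 nodules, and 1322 of them were variable with full lists too, 72.6% of the variable regions. A peak in nodule 3 was found in 78.5% of the 1500.

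**Figure D2:**
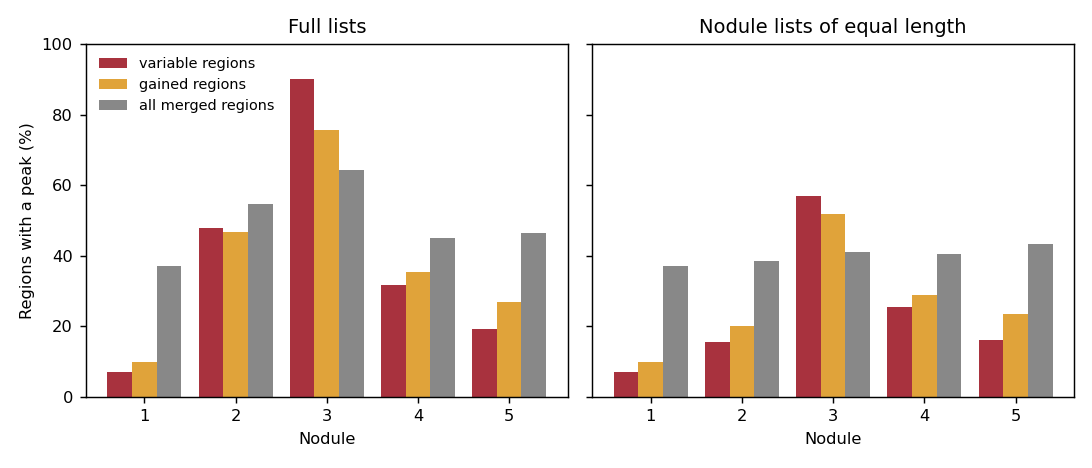
Percentage of variable regions, of all gained regions and of all merged regions with a peak in each of the 5 nodules, with the lists as deposited (left) and with each nodule list cut to its best 26235 peaks (right). Nodule 3 is highest for variable and gained regions in both panels, and nodule 2 is lower on the right, at 20.2% of gained regions against 46.6%.

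Nodules differed in their partners. Nodule 5 went with nodule 2 more than with nodule 4. Of the 351 variable regions of nodule 5, 230 (65.5%) had a peak in nodule 2 as well and 47 (13.4%) in nodule 4. Over the gained regions these shares were 81.3% and 55.2%, beside 46.6% and 35.5% of all gained regions that had a peak in nodules 2 and 4. With nodule lists of equal length they were 52.1% and 47.6%, beside 20.2% and 28.9%, so that the gap between the shares was small, while nodule 2 was still further above its share of all gained regions than nodule 4. Over all merged regions with full lists, 82.5% of the regions of nodule 5 had a peak in nodule 2 and 70.2% in nodule 4. The order of these partners was thus not particular to variable or gained regions. Of the 128 variable regions of nodule 1, 96 (75%) also had a peak in nodule 3, 46 (35.9%) in nodule 4, 30 (23.4%) in nodule 2 and 12 (9.38%) in nodule 5. These nodules had a peak in 90.1%, 31.6%, 47.9% and 19.3% of all variable regions. The limit of 3 nodules holds such shares down, so that the gained regions, which have no limit, are given beside them. Of the gained regions of nodule 1, 88.0% had a peak in nodule 3, 61.3% in nodule 4, 57.5% in nodule 2 and 44.0% in nodule 5, each above the nodule's share of all gained regions (75.5%, 35.5%, 46.6% and 26.8%). Nodules 2 and 4 shared 203 variable regions, 23.3% of those of nodule 2 and 35.3% of those of nodule 4, below the shares of all variable regions with a peak in nodule 4 (31.6%) and in nodule 2 (47.9%). Over the gained regions the order was the opposite, with 45.5% against 35.5% and 59.8% against 46.6%.

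The regions with the best ranks show how sharply nodules could differ. For each combination the region was named whose lowest percentile over all animals with a peak in it was highest. For nodules 1, 3 and 4 this was chr10:79093091-79103932 (mm9 throughout), 10842 bp wide. Its peak stood at percentiles 92.8, 93.8, 92.0, 91.6 and 86.8 in inflamed livers 1 to 5. It stood at 87.0, 93.9 and 92.9 in nodules 1, 3 and 4, and no peak was called in nodules 2 and 5. The region thus ranked among the strong peaks of 8 animals and was missing in the nodule with the second longest list.

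On chromosome 13, chr13:112080355-112087732 led the regions of nodules 2, 3 and 4. Percentiles were 77.5, 86.1, 92.0, 83.6 and 99.9 in inflamed livers 1 to 5 and 71.0, 93.9 and 92.9 in the nodules. Peaks covered 6463 to 7087 bp in inflamed livers and 6464, 7219 and 6934 bp in the nodules, so that the peak lengths of both tissues overlapped. On the same chromosome, chr13:33013683-33022461 led the regions of nodules 3 and 4. It stood at 79.9, 71.3, 92.0, 71.8 and 76.3 in inflamed livers and at 87.0 and 80.9 in the nodules. This region lay in a run of 6 variable regions described further on. For nodules 2, 3 and 5, chr7:54859504-54866506 stood at 73.0, 93.8, 92.0, 82.1 and 94.0 in inflamed livers and at 92.2, 80.3 and 60.7 in the nodules, and no animal had another peak in the stretch drawn around it.

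The best regions of the other common combinations ranked lower. For nodule 3 alone it was chr7:47931563-47935580, at 67.9, 63.3, 61.5, 61.3 and 73.7 in inflamed livers and 73.9 in the nodule. For nodules 2 and 3 it was chr5:135086425-135092513, at 51.8, 43.9, 57.9, 46.3 and 45.5 in inflamed livers and at 63.5 and 68.0 in the nodules. Percentiles in both regions lay between 43.9 and 73.9. For nodule 2 alone, chr9:113455954-113464145 stood at 43.1, 41.4, 37.4, 41.9 and 59.8 in inflamed livers and at 92.2 in nodule 2, where 1 peak covered 8159 bp, against 3931 to 4909 bp under peaks in inflamed livers. More bases lay under a peak in this nodule than in any inflamed liver.

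**Figure D3:**
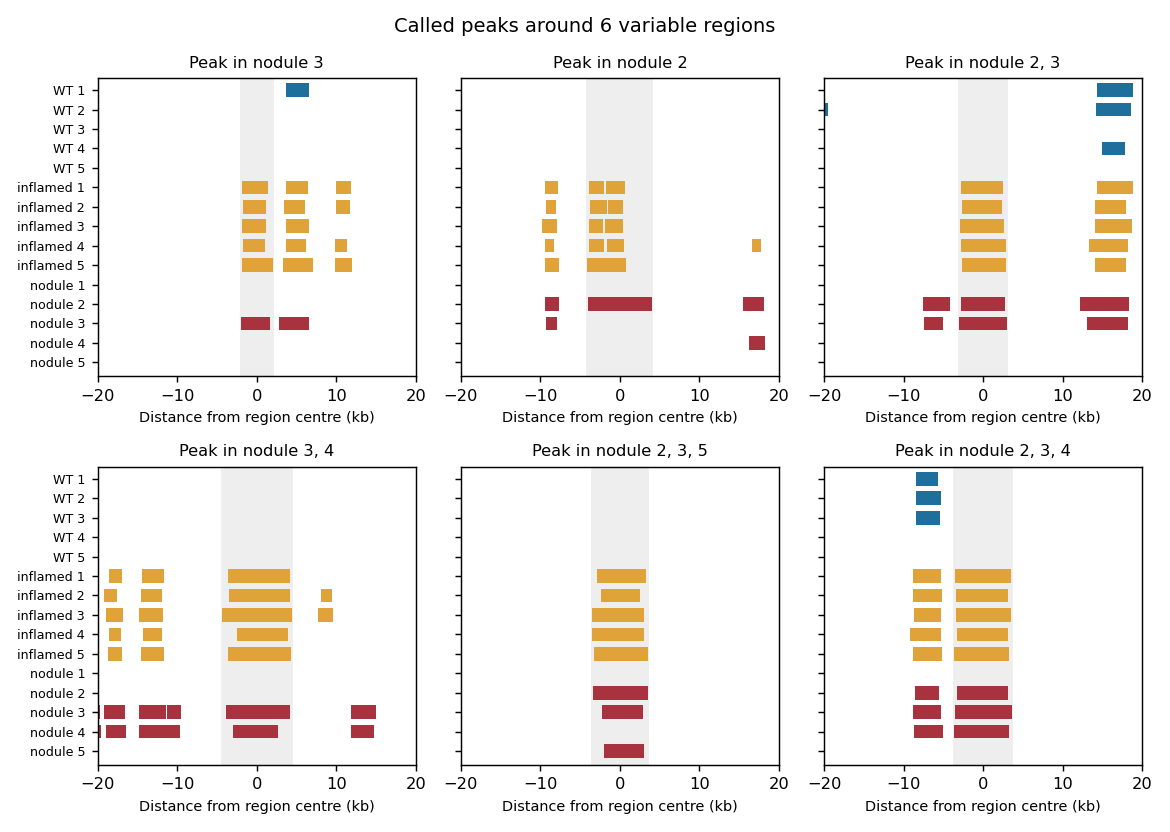
Called peaks (bars) of the 15 animals around the best-ranked region of 6 combinations, the 2 commonest each of 1, 2 and 3 nodules, by distance in kb from the centre of the region (grey band). Blue bars are WT livers, orange bars inflamed livers and red bars nodules; no bar of a WT liver or of nodule 1 lies in any of the 6 grey bands.

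Further named regions had mid or low ranks. In single nodules, chr1:174225112-174229328 stood at 37.8 in nodule 1, chr17:4172324-4175743 at 41.3 in nodule 4 and chr12:70594460-70599819 at 27.4 in nodule 5, with inflamed medians of 62.3, 38.7 and 50.4. Among pairs with nodule 3, chr5:129080560-129086971 stood at 60.1 in nodule 1 and 45.7 in nodule 3, and chr17:75874095-75879357 at 65.4 in nodule 3 and 56.1 in nodule 5. In the first of these, nodule 1 had 6412 bp under peaks and nodule 3 had 2300 bp, so that a shared region need not hold a shared peak shape. Pairs without nodule 3 were rare. They were led by chr7:125948704-125956482 for nodules 2 and 5 (58.5 and 49.6), chr7:75165094-75168415 for nodules 2 and 4 (21.4 and 23.3) and chr1:153709810-153713333 for nodules 1 and 2 (24.8 and 22.3). The single region of nodules 4 and 5, chr7:4121043-4123820, stood at 55.2 and 28.4. At chr11:48250267-48258112, for nodules 1 and 5, the peak stood at 99.6 in nodule 5, 7846 bp long, and at 3.32 to 34.5 in inflamed livers.

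The combinations of 3 nodules that were less common ranged widely. For nodules 3, 4 and 5, chr13:5816165-5827885 stood at 93.9, 92.9 and 36.2 in the nodules and at 39.4 to 67.6 in inflamed livers. For nodules 1, 2 and 3, chr13:21825449-21828346 stood at 43.4, 31.9 and 47.2. For nodules 1, 3 and 5, chr5:139332515-139342663 stood at 62.6, 53.9 and 74.7. Without nodule 3, chr12:104538844-104546432 stood at 51.8, 23.6 and 82.4 in nodules 1, 4 and 5, where 2 regions in all had this combination. The lowest ranks were at chr8:109464802-109470053 for nodules 2, 4 and 5 (9.06 in nodule 4 and 15.7 in nodule 5) and at chr18:5368439-5374969 for nodules 1 and 4 (5.23 and 23.3). The single region of nodules 1, 2 and 5, chr9:96777996-96780948, stood at 46.2, 38.4 and 22.5.

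Most variable regions were not strong peaks of the inflamed liver. Their median percentile was 33.4, 31.6, 41.9, 33.9 and 26.6 in inflamed livers 1 to 5, with quartiles in inflamed liver 1 of 22.2 and 44.8. The lists of these animals placed between 14.6% and 46.3% of the variable regions below percentile 25 and between 0.220% and 1.54% above percentile 75. All 5 inflamed livers ranked a peak above the median of its list in 81 variable regions (4.45%). Of these, 6 had a peak in 1 nodule (1.02% of the gained regions with 1 nodule), 35 in 2 (4.90%) and 40 in 3 (7.75%). The share was 1.03% in absent regions, 13.3% with 4 nodules and 26.1% with 5. Among all 2713 gained regions, 149 ranked so. A peak in nodule 3 was found in 80 of the 81, and in 90.1% of all variable regions.

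The rank in inflamed livers was higher in regions with a peak in many nodules, mainly from 3 nodules upwards. Each class has a peak in all inflamed livers and is split by the nodules alone, so that ranks in inflamed livers did not enter the split. The medians over the 5 inflamed livers averaged 31.5 ± 9.29 for absent, 33.5 ± 5.51 for variable and 42.7 ± 3.21 for retained regions (SD, n = 5). Variable regions ranked below retained regions in 5 of 5 inflamed livers, a difference of -9.19 ± 2.73 percentiles (exact sign-flip permutation test over animals, two-sided, p = 0.0625, the smallest that 5 pairs allow; Benjamini-Hochberg adjusted p = 0.125 over 4 tests). This design cannot pass a threshold of 0.05. Against absent regions the difference was 2.01 ± 4.35 percentiles, with variable regions higher in 2 of 5 animals (exact sign-flip permutation test, p = 0.500; adjusted p = 0.500). Inflamed liver 5 stood out. Its median rose from 17.4 in absent regions to 22.9, 27.3 and 31.1 in regions with 1, 2 and 3 nodules and to 37.9 and 43.9 with 4 and 5 nodules. In inflamed liver 3 it was 43.4 in absent regions and 41.5, 41.3 and 43.4 with 1, 2 and 3 nodules.

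**Figure D4:**
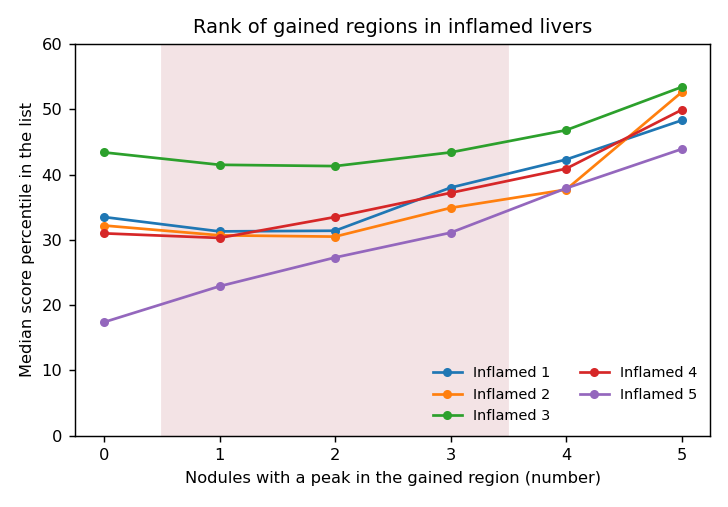
Median within-list score percentile of gained regions in each of the 5 inflamed livers (lines), by the number of nodules with a peak in the region; the shaded band holds the variable regions. All 5 lines are highest at 5 nodules, between 43.9 and 53.4, and inflamed liver 5 starts lowest, at 17.4.

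Variable regions had a median merged width of 3960 bp, from 1612 to 38311 bp, against 3526 bp for all merged regions, and covered 8.37 Mb. Merged width includes nodule peaks. Its median was 3701 bp with 1 nodule, 3982 bp with 2 and 4264 bp with 3, and the part of nodule peaks in this rise was not tested. The length under peaks in inflamed livers leaves nodule peaks out, although a nodule peak can still join separate inflamed peaks into a region. Its medians were 2975, 2627, 3176, 2675 and 2798 bp in inflamed livers 1 to 5, a mean of 2850 ± 226 bp (SD, n = 5), against 3168 ± 208 bp in retained and 2745 ± 297 bp in absent regions. Variable regions were shorter than retained regions in 5 of 5 animals, a difference of -318 ± 78.7 bp (exact sign-flip permutation test, p = 0.0625; adjusted p = 0.125). They differed from absent regions by 106 ± 161 bp (exact sign-flip permutation test, p = 0.125; adjusted p = 0.167). That difference was 388 bp in inflamed liver 5, and it turned to -248 bp with all lists of equal length and to -350 bp in the top 50% of each list. A single peak in every inflamed liver was found in 85.7% of variable, 90.1% of absent and 77.0% of retained regions. Within these, a setting chosen after the values were seen, the difference in length from retained regions was -165.0 ± 76.8 bp and in rank -8.67 ± 3.36 percentiles, both lower in 5 of 5 animals (exact sign-flip permutation test, p = 0.0625 for each). The difference in length from absent regions was 53.9 ± 156 bp (exact sign-flip permutation test, p = 0.812).

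Nodule peaks in the variable regions ranked low in most nodules. The median percentile was 46.1 in nodule 3, 33.4 in nodule 4, 23.9 in nodule 2, 22.6 in nodule 5 and 17.9 in nodule 1. In their own lists, 63.3% of the peaks of nodule 1 lay below percentile 25, as did 52.7% of nodule 5, 52.4% of nodule 2, 40.3% of nodule 4 and 21.9% of nodule 3. A longer list raises the percentile of the same peak, and nodule 3 had the longest. With nodule lists of equal length, the median was 35.4 in nodule 4 (463 regions), 32.3 in nodule 3 (1038), 22.7 in nodule 5 (294), 17.9 in nodule 1 (128) and 14.9 in nodule 2 (281), so that nodule 3 was no longer first. Its peaks had a median of 3204 bp, those of nodule 4 3175 bp, nodule 5 2949 bp, nodule 2 2256 bp and nodule 1 2026 bp. A nodule peak above percentile 75 was found in 208 variable regions (11.4%), with 175 such peaks in nodule 3, 43 in nodule 4, 14 in nodule 5, 11 in nodule 2 and 1 in nodule 1. In 31 regions such a peak belonged to the single nodule with a peak.

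A merged region can join peaks that do not lie over each other, so the bases under a peak of all 5 inflamed livers were taken as a core. A core existed in 1813 of the 1821 regions, with a median of 2161 bp. Of the 3567 times a nodule had peaks in a variable region, 3516 (98.6%) reached the core. Where nodule 1 had peaks they covered a median of 82.2% of the core, those of nodule 2 94.9%, and those of nodules 3, 4 and 5 all of it. In 10 of the 1813 regions no nodule peak touched the core. Counting only nodule peaks over the core, a setting chosen after the values were seen, left 1803 of the 1821 regions with 1 to 3 nodules. Over all gained regions, 1817 had 1 to 3 nodules in this way, so that some of them were not among the 1821.

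The neighbourhood of the variable regions was described by peaks within 10000 bp on either side and outside the region. As the regions were chosen on these same animals, the values are given without a test. In WT livers 26.2%, 29.2%, 30.8%, 24.3% and 29.3% of the variable regions had such a neighbouring peak. In inflamed livers these shares were 59.4%, 55.8%, 63.9%, 58.4% and 54.7%. In nodules 1 to 5 they were 27.0%, 44.2%, 63.4%, 39.6% and 32.3%. WT and inflamed animals did not overlap, and nodules spanned from the WT range to the inflamed range, with nodule 1 among WT livers and nodule 3 among inflamed livers. Over all merged regions, WT livers had a neighbouring peak at 38.0% to 43.5%, inflamed livers at 49.5% to 54.0% and nodules at 34.5% to 56.3%. The mean difference between inflamed and WT livers was 30.5 percentage points beside variable regions and 10.4 beside all merged regions. It was 35.7 beside absent and 26.0 beside retained regions, so that variable regions lay between the other gained regions. In nodules the mean share was 20.3% beside absent, 41.3% beside variable and 55.0% beside retained regions. No WT liver had a neighbouring peak beside 1093 of the 1821 regions (60%, against 47.3% of all merged regions), and all 5 inflamed livers had one beside 867 (47.6%, against 42.6%). Beside 239 regions all inflamed livers and no WT liver had one, 13.1% of the variable regions against 3.85% of all merged, 15.3% of absent and 11% of retained regions.

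Neighbouring peaks went with the peak of the region itself in each nodule. Nodule 5 had a neighbouring peak beside 57.8% of the variable regions in which it had a peak and 26.3% of those in which it had none. For nodule 1 these shares were 47.7% and 25.4%, for nodule 4 53.7% and 33.1%, for nodule 2 53.8% and 35.3%, and for nodule 3 64.9% and 50.0%. The first share was higher in 5 of 5 nodules. Other regions were not split in this way, so whether this is particular to variable regions was not tested. Where a nodule had no peak in the region, its share thus lay between 25.4% and 50.0%, and for nodules 1 and 5 it was within the range of the WT livers.

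**Figure D5:**
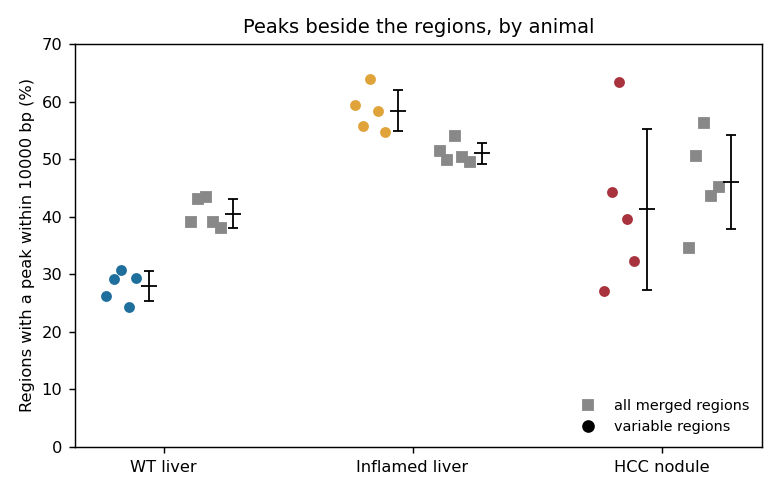
Percentage of variable regions (coloured circles) and of all merged regions (grey squares) with a peak within 10000 bp on either side, for each of the 5 animals of a group; dashes and bars give the mean and SD. Circles lie between 24.3% and 30.8% in WT livers, between 54.7% and 63.9% in inflamed livers and from 27.0% to 63.4% in nodules.

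Variable regions were found on all 19 autosomes, from 47 on chromosome 19 to 159 on chromosome 1. They made up 2.63% (chromosome 19) to 4.11% (chromosome 13) of a chromosome's merged regions and 56.7% (chromosome 18) to 77.3% (chromosome 16) of its gained regions. Nodule 3 had the largest share of gained regions on each chromosome, from 65.7% on chromosome 17 to 92.3% on chromosome 19, and nodule 1 the smallest, from 5.44% to 15.7%. The order of these 2 nodules therefore did not rest on a single chromosome.

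Neighbouring variable regions resembled each other in their nodules. The median distance from a region to the nearest other variable region was 164404 bp, and 576 regions (31.6%) had another within 50000 bp. Of 330 consecutive pairs under 50000 bp apart, 100 (30.3%) had the same combination of nodules. This share was 18.8% of 857 pairs between 50000 and 1000000 bp apart, 15.4% of 615 pairs farther apart and 14.6% over all pairs on different chromosomes. By nodule, the 2 regions of a pair under 50000 bp apart had the same state in nodule 2 in 66.7% of pairs, against 49.6% of pairs over 1000000 bp apart, and in nodule 4 in 69.7% against 58.9%. In nodule 5 these shares were 83.6% and 64.9%, in nodule 3 86.7% and 81.3%, and in nodule 1 90.9% and 86.8%. Pairs of other regions were not compared, so whether this likeness is particular to variable regions was not tested.

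Runs of close regions mostly mixed combinations. Of 246 runs of at least 2 variable regions less than 50000 bp apart, 61 (24.8%) held a single combination, and of the 16 runs of at least 4 regions 1 did. A peak in nodule 3 was found in every region of 204 of the 246 runs. Of the 246 runs, 188 had 2 regions, and nodule 3 had a peak in 90.1% of all variable regions. Whether 204 runs are more than that share alone gives was not tested. The 6 runs of at least 5 regions are given in full. The longest had 7 regions, at chr5:53760200-53959251. All 7 had a peak in nodule 3, 4 of them in nodule 2 and 3 in nodule 4. The 6 regions at chr5:101007310-101074404 went from nodules 2, 3 and 5 in the first 2 regions through nodule 2 alone and nodules 2 and 3 to nodule 3 alone in the last 2. At chr13:32993996-33090627, 6 regions followed each other, of which 4 had a peak in nodules 3 and 4, 1 in nodule 3 alone and 1 in nodules 2, 3 and 4. At chr1:188180892-188305235, 4 of 5 regions had a peak in nodules 3 and 4 and 1 in nodule 3 alone. At chr11:67292013-67403480, 3 of 5 regions had a peak in nodule 3 alone, 1 in nodules 2 and 3 and 1 in nodules 2, 3 and 5. At chr13:20188294-20268385 all 5 regions had a peak in nodules 2, 3 and 4.

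At the edges of the rule, regions just outside differed from the variable regions by degree. Regions with a peak in 3 nodules, the last inside, numbered 516 with a mean inflamed percentile of 36.9 ± 4.54, and those with 4 nodules, the first outside, 339 with 41.1 ± 3.72 (SD over 5 inflamed livers). Regions with a peak in 1 nodule had 31.3 ± 6.63 and those with none 31.5 ± 9.29. A peak in 1 WT liver in place of none, with all inflamed livers and 1 to 3 nodules, was found in 1026 regions with a mean percentile of 39.5 ± 8.32. A peak in 4 of 5 inflamed livers was found in 989 regions with a mean percentile of 19.7 ± 4.25, below that of the variable regions (33.5 ± 5.51).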

How the data were processed

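H3K27Ac ChIP-seq peak lists of 5 WT livers, 5 inflamed livers and 5 HCC nodules, 1 animal per list, were analysed; groups came from the sample records. The submitters' processing notes name Bowtie 0.12.7, MACS 1.4 and build mm9. The authors called peaks in each animal and deposited the position and score of each peak, from 50.00 to 3233.06 on a scale not stated; filters are not given in the sources used here. The score served as a rank within a list. Lists depend on depth, which is unknown, and a peak just under the caller's threshold counts as none.

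Peaks on chromosomes 1 to 19 were merged, and an overlap of 1 bp made a region occupied. Members and lists were chosen with earlier results of these data known. Ranks and lengths in inflamed livers were compared between classes by exact sign-flip permutation tests over 5 animals. Exact permutation tests of the shares with neighbouring peaks were planned and computed, and were then left out because the rule had used the same animals, a decision made after their values were seen. The region named for each combination had the highest lowest percentile over animals with a peak, with ties broken by mean percentile and position. Gene lists and motifs were not run for want of mm9 annotation. Alternatives were equal lists, the top 50% of each list, a peak covering 50% of a region, merging across 1000 bp, looser group limits, chromosome X, other flanks and leaving out each animal. Code was tested on simulated lists. Python 3.11.15, NumPy 2.4.6, SciPy 1.17.1 and matplotlib 3.10.9 were used.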

Additional observations from a re-analysis of the deposited data

Results flagged for a closer look

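A check for 1 value far from the rest was made in 22 sets of 5 animals and found 2, where chance gives about 1 in 20. The number of variable regions found in a single nodule was 457 in nodule 3, against 15 to 67 in the other nodules. Nodule 3 also had the longest list, with 41863 peaks. The difference in length under peaks between variable and absent regions was 388 bp in inflamed liver 5. The next largest was in inflamed liver 4, with medians of 2675 bp and 2594 bp, and the lowest was -4 bp. Inflamed liver 5 had the shortest list of its group, with 35188 peaks. The part of list length in both values was not tested.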

How the results depend on the processing

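The number of variable regions, 1821, fell to 565 with all lists cut to equal length and to 818 in the top 50% of each list, and rose to 4398 with at least 4 of 5 inflamed and at most 1 of 5 WT livers. Their share of gained regions, 67.1%, was 58.2%, 72.1% and 63.3% in these settings and 55.3% with nodule lists alone of equal length. The share with a peak in nodule 3, 90.1%, was 86.9%, 92.8% and 83.0%, and 78.5% with equal nodule lists. The difference in neighbouring peaks between inflamed and WT livers, 30.5 points, was 19.1, 20.7 and 24.8, and 23.4 with flanks of 5000 bp. The length difference between variable and absent regions, 106 bp, was reversed to -248 bp with equal lists and -350 bp in the top 50%. The cause of these shifts was not tested. Leaving out 1 animal gave 1739 to 2492 regions, 61.4% to 77.9% of gained regions and 86.1% to 94.6% with nodule 3; without a nodule, the rule was 1 to 3 of 4. The rank difference from retained regions, -9.19 percentiles, was -14.8 without nodule 2, and the length difference, -318 bp, was -618 bp without nodule 4; that from absent regions, 2.01, was 4.72 without inflamed liver 5. The comparison classes moved more: absent regions, 484, were 985 without inflamed liver 5 and 944 without nodule 3, and retained regions, 408, were 785 without WT animal 130748 and 73 to 108 without nodule 2, 3, 4 or 5, when all 4 nodules left needed a peak. With 1 peak in every inflamed liver, the length difference from retained regions was -165.0 bp. In the settings run, no difference in rank or in neighbouring peaks changed direction. Nodule 3's share and the equal nodule lists were taken up after the data were seen. Of 24 named regions, 20 kept their number of nodules with equal lists, 15 with a peak covering 50% of the region and 9 in the top 50%. Without reads, a region with no called peak may still be acetylated. No paired analysis was possible because the groups hold different animals with no shared numbers.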

Other observations

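On chromosome X, which the rule left out, 26 of 31 gained regions had a peak in 1 to 3 nodules. Of these 26, a peak was found in nodule 3 in 25, in nodule 2 in 11, in nodules 4 and 5 in 8 each and in nodule 1 in 0.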
